A study of Mus musculus with 4 samples.

Results

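The replication-dependent histone genes were taken as all protein-coding genes with the symbols H1f1 to H1f5 or H2ac, H2bc, H3c and H4c followed by a number, or with a symbol that begins Hist1h to Hist4h, matched on the table's symbol and not on its synonyms. The rule found 62 of the 21887 protein-coding genes of the RefSeq table: 52 on chromosome 13 (Hist1) and 10 on chromosome 3 (Hist2). By class they were 5 H1, 17 H2A, 16 H2B, 12 H3 and 12 H4 genes. The table uses current symbols, under which 5 genes with a Hist1, Hist3 or Hist4 synonym fall outside the rule. Their peaks are given with the other observations. All members are short except 5 that exceed 2 kb: the median length was 491 bp, within a range of 375 to 37455 bp.

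The peaks came from ChIP-exo of D3 cells, a mouse embryonic stem cell line, with 4 libraries and 1 library in each group. ChIP-exo trims precipitated DNA with an exonuclease up to the crosslinked protein. One library mapped endogenous Sox2, isolated by an anti-Sox2 antibody. The other 3 mapped HaloTag fusions, isolated through their covalent bond with HaloLink resin: Halo-Sox2, Halo-Sox2M (labelled M47G, F50 and M51G) and Halo-Sox2D (Sox2 residues 1 to 120). The labels do not say how the fusions were expressed, nor whether the cells that carried them still had endogenous Sox2. With 1 library per group no test between groups was possible, and the intervals below are 95% Wilson intervals that cover counting error only. The lists held 7153, 6558, 1711 and 13833 peaks in that order, 1 to 20 bp wide, without read numbers or scores. Read depth is unknown, and differences in list length cannot be told apart from differences in depth or threshold. An input control and a resin control were not analysed here.

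Histone genes of this kind supply the nucleosome proteins that are needed when DNA is copied. They lie in clusters, have no introns in their main transcripts, are transcribed mostly in S phase and end in a stem-loop instead of a poly(A) tail. Many H2A and H2B genes stand head to head and share the stretch between their starts. Sox2 is an HMG-box factor that bends DNA and acts with Oct4 in embryonic stem cells. Genes for tRNAs, which RNA polymerase III transcribes from promoters inside the gene, lie among the histone genes of the Hist1 cluster.

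The stretches below are shown because Halo-Sox2 or Halo-Sox2D peaks lay inside them, just before histone gene starts. They are the bases before the annotated start of the first-named gene, 5′ to 3′ in its direction, from the RefSeq promoter table of GRCm38.p6, and capitals mark the called peak. For the pairs of genes that stand head to head, the stretch ends where the second gene begins. In the first, at chr13:21753913-21754075 (minus strand), the capital is a Halo-Sox2 peak of 1 base.
H2ac15/H2bc15: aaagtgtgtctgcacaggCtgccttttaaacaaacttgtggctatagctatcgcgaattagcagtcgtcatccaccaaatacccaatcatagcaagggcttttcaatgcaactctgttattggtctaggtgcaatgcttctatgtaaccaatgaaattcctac
In the second, at chr13:21787249-21787482 (minus strand), a Halo-Sox2D peak covered bases 100 to 113, with a CCAAT box at bases 103 to 107.
H2ac22/H2bc22: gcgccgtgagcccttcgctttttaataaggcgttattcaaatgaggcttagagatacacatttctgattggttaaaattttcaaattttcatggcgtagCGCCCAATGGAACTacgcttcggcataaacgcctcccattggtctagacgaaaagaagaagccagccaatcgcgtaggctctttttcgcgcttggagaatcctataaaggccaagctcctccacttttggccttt
The next pair, at chr13:21810200-21810366 (plus strand) and chr13:21833476-21833725 (minus strand), belong to near-identical copies: the promoter windows of H2ac23 and H2ac24 shared 200 bases without a difference. Halo-Sox2 peaks began 1 base apart on those shared bases (capitals at bases 87 to 88 before H2ac23 and 71 to 72 before H2ac24). The capitals at bases 103 to 116 before H2ac24 are a Halo-Sox2D peak.
H2ac23/H2bc23: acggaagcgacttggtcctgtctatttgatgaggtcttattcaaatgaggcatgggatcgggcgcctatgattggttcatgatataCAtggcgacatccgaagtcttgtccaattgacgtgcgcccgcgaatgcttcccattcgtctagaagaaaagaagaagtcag
H2ac24: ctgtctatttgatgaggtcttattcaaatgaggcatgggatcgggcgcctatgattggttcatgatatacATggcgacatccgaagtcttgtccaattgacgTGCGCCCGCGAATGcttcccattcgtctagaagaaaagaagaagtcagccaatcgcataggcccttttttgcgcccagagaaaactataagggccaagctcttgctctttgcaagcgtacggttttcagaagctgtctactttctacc
The stretch at chr3:96220881-96221071 (minus strand), is from the Hist2 cluster. Its Halo-Sox2 peak at bases 106 to 125 also held a CCAAT box (bases 109 to 113).
H2ac20/H2bc21: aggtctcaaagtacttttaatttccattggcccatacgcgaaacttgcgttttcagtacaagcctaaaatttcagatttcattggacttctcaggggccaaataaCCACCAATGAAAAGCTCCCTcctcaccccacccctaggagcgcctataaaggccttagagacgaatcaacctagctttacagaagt
The last 3 lie before a linker histone gene and before H4 genes. They are at chr13:23763418-23763667 (plus strand; a Halo-Sox2D peak 1 base short of a TATAAA box), chr13:23756687-23756936 (plus strand; Halo-Sox2D, centred 11 bp before the start) and chr13:23698459-23698708 (minus strand; Halo-Sox2).
H1f1: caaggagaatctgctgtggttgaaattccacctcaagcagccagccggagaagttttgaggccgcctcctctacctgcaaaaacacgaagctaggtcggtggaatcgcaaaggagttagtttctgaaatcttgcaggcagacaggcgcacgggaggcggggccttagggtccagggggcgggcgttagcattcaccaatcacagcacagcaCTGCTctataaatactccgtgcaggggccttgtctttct
H4c2: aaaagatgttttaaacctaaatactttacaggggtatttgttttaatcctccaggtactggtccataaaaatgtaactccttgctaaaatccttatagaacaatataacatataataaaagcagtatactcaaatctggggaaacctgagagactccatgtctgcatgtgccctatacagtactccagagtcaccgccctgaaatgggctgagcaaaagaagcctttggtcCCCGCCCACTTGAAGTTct
H4c3: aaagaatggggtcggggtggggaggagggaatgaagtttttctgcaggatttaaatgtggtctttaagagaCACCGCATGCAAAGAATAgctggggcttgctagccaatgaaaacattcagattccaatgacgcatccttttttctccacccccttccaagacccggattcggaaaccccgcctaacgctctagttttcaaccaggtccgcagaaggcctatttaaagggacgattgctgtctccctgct

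Peaks of the Halo-tagged full-length and truncated proteins lay at many histone genes, and peaks of endogenous Sox2 and Halo-Sox2M at few. A gene counted as having a peak if the middle of a peak fell between 1 kb before and 1 kb after its annotated ends. Halo-Sox2D had a peak at 24 of 62 members (38.7%, 27.6 to 51.2%), against 25.5% of all protein-coding genes. For Halo-Sox2 there were 15 (24.2%, 15.2 to 36.2%), against 10.6%. Endogenous Sox2 had 7 (11.3%, 5.58 to 21.5%), against 8.34%, so its share was near that of all genes. Halo-Sox2M had 2 (3.23%, 0.889 to 11%), against 1.67%, and its interval covered the share of all genes. The members' intervals of Halo-Sox2 and Halo-Sox2D lay above the share of all genes. The genes overlap in their windows, and 14 of the 39 peaks counted for 2 or 3 members at once. When each peak counted for its nearest protein-coding gene alone, the numbers of members were 17 (27.4%, 17.9 to 39.6%), 9 (14.5%, 7.83 to 25.3%), 6 (9.68%, 4.51 to 19.5%) and 1 (1.61%, 0.285 to 8.59%) in the order just given. The shares of all protein-coding genes under that rule were 23.6, 10.0, 7.94 and 1.55%. Each interval then covered the share of all genes.

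Most protein-coding genes are far longer than histone genes and so have more room for a peak. This comparison was added after the data were seen. Among the 2583 protein-coding genes of at most 2 kb, which include 57 members, 4.41% had a Halo-Sox2D peak, 1.59% a Halo-Sox2 peak, 0.813% an endogenous Sox2 peak and 0.581% a Halo-Sox2M peak. Of the 57 members this short, 23 had a Halo-Sox2D peak (40.4%, 28.6 to 53.3%), 12 a Halo-Sox2 peak (21.1%, 12.5 to 33.3%), 6 an endogenous Sox2 peak (10.5%, 4.91 to 21.1%) and 2 a Halo-Sox2M peak (3.51%, 0.968 to 11.9%). The intervals lay above the share of short genes, but both Halo-Sox2M members owe their count to 1 peak, and members that share a peak are not independent. The count by nearest gene alone was not made for short genes, and traits other than length were not matched. The lists differ in length, so the peaks at members were also set against it: 21 of the Halo-Sox2D peaks lay at members (0.152% of the list, 0.0993 to 0.232%), 10 of the Halo-Sox2 peaks (0.152%, 0.0829 to 0.28%), 7 of the endogenous Sox2 peaks (0.0979%, 0.0474 to 0.202%) and 1 of the Halo-Sox2M peaks (0.0584%, 0.0103 to 0.33%). These 4 intervals overlap, so a difference between the lists in this respect was not detectable. None of the 39 peaks lay in a 100-kb bin with 15 or more peaks in any list.

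**Figure D1:**
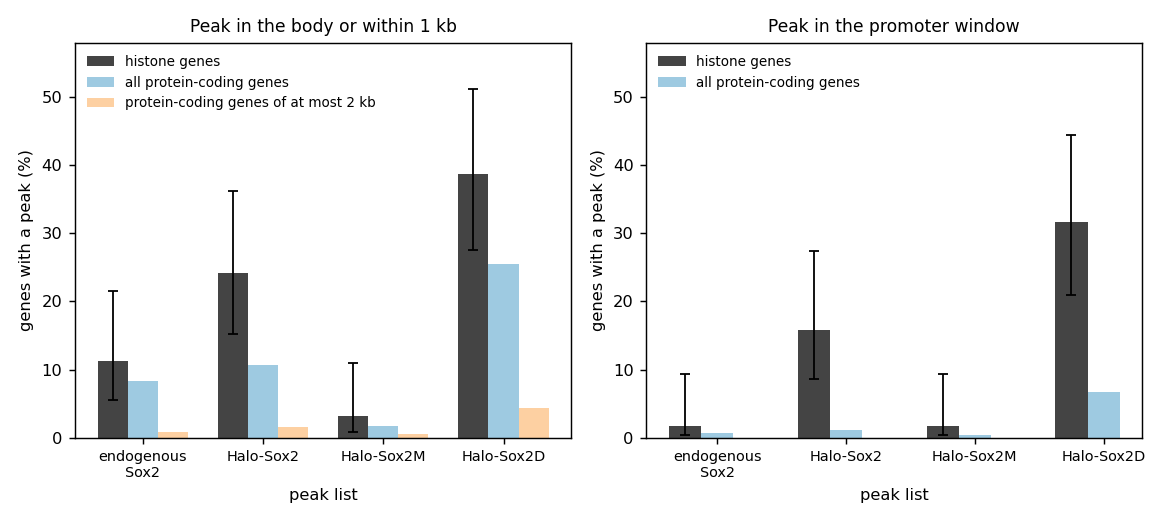
Percent of histone genes (dark bars, with 95% Wilson intervals over genes) and of protein-coding genes with a peak, for each of the 4 lists, counted over the gene body plus 1 kb (left) and over the promoter window of 300 bases (right). The dark bars of Halo-Sox2 and Halo-Sox2D, at 24.2 and 38.7% on the left and 15.8 and 31.6% on the right, stand above the bars of all protein-coding genes.

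Promoters, taken as 250 bases before to 50 after the annotated start, were available for 57 members and give windows of equal length. This count was added after the data were seen. Halo-Sox2D had a peak centre in 18 of the 57 promoter windows (31.6%, 21 to 44.5%), against 6.76% of 17492 protein-coding genes. Halo-Sox2 had one in 9 (15.8%, 8.54 to 27.4%), against 1.07%. Endogenous Sox2 and Halo-Sox2M each had one in 1 window (1.75%, 0.31 to 9.29%), against 0.635 and 0.349%. The windows of head-to-head neighbours overlap, so 1 peak could count for both. The 18 windows came from 15 Halo-Sox2D peaks and the 9 from 7 Halo-Sox2 peaks. The windows are thus not independent, which the intervals do not take into account. A count of 1 window per peak was not made. The endogenous Sox2 and Halo-Sox2 lists are of similar length, yet their intervals over these windows overlap slightly, and 1 library each gives no replicate check of the difference.

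Where the peaks lay relative to the start also set the lists side by side. Of the Halo-Sox2 peaks at members, 7 of 10 were in a promoter window of a member (70.0%), as were 15 of 21 Halo-Sox2D peaks (71.4%). One of 7 endogenous Sox2 peaks (14.3%) and the single Halo-Sox2M peak were. Over peaks at any protein-coding gene the shares in a promoter window were 6.42, 15.4, 4.19 and 13.8% in the order Halo-Sox2, Halo-Sox2D, endogenous Sox2 and Halo-Sox2M, with long gene bodies included. The median distance from the nearest member start was 125.5 bp for Halo-Sox2 (10 peaks), 68.8 bp for Halo-Sox2D (20 peaks with a listed start) and 543 bp for endogenous Sox2 (7 peaks).

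**Figure D2:**
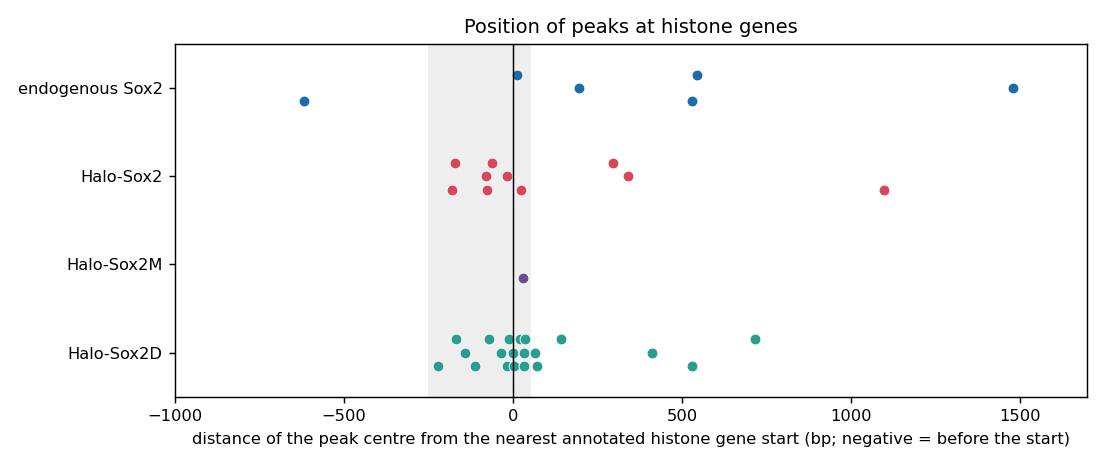
Distance in bp of each peak centre from the nearest annotated start of a histone gene counted for it, by list; the grey band is the promoter window (250 bases before to 50 after the start). Most Halo-Sox2 and Halo-Sox2D points fall in the band and most endogenous Sox2 points outside it; 1 endogenous Sox2 peak in H2bc6, at -9777.5 bp, is beyond the axis, and the Halo-Sox2D peak in H4c14 has no listed start.

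The H2A and H2B genes, whose products form the dimers of the nucleosome, are 33 of the 62 members and 23 of the 38 with a peak. In at least 1 list 13 of 17 H2A genes (76.5%, 52.7 to 90.4%) and 10 of 16 H2B genes (62.5%, 38.6 to 81.5%) had a peak, against 32.9% of all protein-coding genes. Halo-Sox2 peaks lay at 7 H2A (41.2%) and 4 H2B genes (25.0%), against 10.6% of all genes. Halo-Sox2D peaks lay at 8 (47.1%) and 6 (37.5%), against 25.5%. Endogenous Sox2 peaks lay at 1 (5.88%) and 3 (18.8%), against 8.34%. The Halo-Sox2M peak was counted for 1 H2A gene (5.88%, against 1.67%). Both intervals for at least 1 list lay above the share of all genes. Within single lists, only those of H2A genes for Halo-Sox2 (21.6 to 64.0%) and Halo-Sox2D (26.2 to 69.0%) did. Several of these counts came from single peaks between genes that stand head to head. At H2ac15 and H2bc15 (older symbols Hist1h2ak and Hist1h2bn) the Halo-Sox2 peak at 21754057 lay 19 bp before the H2bc15 start, in the stretch printed first. A Halo-Sox2D peak at 21753831 to 21753850 lay 216.5 bp away, inside H2ac15. At H2ac22 and H2bc22 a Halo-Sox2 peak (21787218 to 21787232) lay 23 bp after the H2ac22 start and the Halo-Sox2D peak (21787370 to 21787383) at -111.5 bp from the H2bc22 start (negative values are before a start), 151.5 bp apart.

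H2ac24 (Hist1h2ap) had a Halo-Sox2 peak 179.5 bp and a Halo-Sox2D peak 141.5 bp before its start, 38 bp apart. H2ac23 and H2bc23 shared a Halo-Sox2 peak 80.5 bp before the H2ac23 start and had no Halo-Sox2D peak. Because the H2ac23 and H2ac24 windows are the same over 200 bases, a read from one could match the other. How the authors placed such reads is not given in the sources used here, so these Halo-Sox2 peaks may not be independent. H2ac10 had a Halo-Sox2 peak 63.5 bp before its start. In the Hist2 cluster 1 Halo-Sox2 peak, 76.5 bp before the H2ac20 start, was counted for H2ac21, H2ac20 and H2bc21.

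Halo-Sox2D alone had single peaks at H2ac12 and H2bc12 (22035852 to 22035854, 32 bp after the H2bc12 start) and at H2ac11 and H2bc11 (22043195 to 22043203, 1 bp after the H2bc11 start). H2bc14 had 2 Halo-Sox2D peaks, 168 and 222.5 bp before its start. The histone pseudogene H2ac14, not a member, lay nearer to them, 75 and 20.5 bp away in the same order. H2ac19 and H2ac18, copies with promoter windows 95.8% identical over 260 bases, had 1 Halo-Sox2D peak each, 35.5 and 66 bp after the start. H2ac8 and H2bc8 (Hist1h2ae and Hist1h2bg) shared a Halo-Sox2D peak over the 17 bases TCTTTGTTGCTTGTTTC in the H2bc8 direction, 20 bp after that start, and those bases hold ACAAAG on the opposite strand. They also had 2 endogenous Sox2 peaks, 194.5 bp after the H2ac8 start and 543 bp after the H2bc8 start, neither within the promoter window.

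Endogenous Sox2 had 1 peak in a promoter window of a member. It covered 18 bases, TCGTAGTTGCCCGGTCTA, from 96269703 to 96269720 in the H2bc18 (Hist2h2bb) gene of the Hist2 cluster, 11.5 bp after the start, and was counted for the neighbouring H3c13 as well. H2bc6 had 2 endogenous Sox2 peaks, at 23586583 to 23586595 and 23595742 to 23595753. They lay at -619 and -9777.5 bp from the start in the promoter table, and the second counts through the annotated span of 37455 bp. Without the 5 members longer than 2 kb, 6 members had an endogenous Sox2 peak.

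H4 genes, which encode one of the most conserved proteins known, had peaks at 9 of 12 members (75%, 46.8 to 91.1%), against 32.9% of all genes. Halo-Sox2D had a peak at 7 (58.3%, 32.0 to 80.7%), against 25.5%. Halo-Sox2 had one at 3 (25%, 8.89 to 53.2%), against 10.6%, and endogenous Sox2 at 1 (8.33%, 1.49 to 35.4%), against 8.34%. The last 2 intervals covered the share of all genes. At H4c11 (Hist1h4j) the endogenous Sox2 peak (21735555 to 21735572) and the Halo-Sox2D peak (21735556 to 21735572) overlapped, 529.5 and 530 bp after the start and thus just past the gene. It was the one place at members where peaks of 2 lists overlapped. At H4c8 a Halo-Sox2 peak 341 bp and a Halo-Sox2D peak 715 bp after the start lay 374 bp apart. H4c12 had 2 Halo-Sox2D peaks, 3 and 142 bp after its start. The promoter windows of H4c11 and H4c12 are 95.8% identical over 286 bases, and the first of these peaks lies on them. Whether reads of one copy were placed at the other was not tested. The remaining H4 genes fell outside the rule for named genes and were named after their values were seen. Halo-Sox2D had 1 peak each at H4c1, H4c2, H4c9 and H4c14, of which those at H4c2 and H4c1 lay 11 and 16.5 bp before the start and that at H4c9 33.5 bp after it. Halo-Sox2 had 1 peak each at H4c3 (170.5 bp before) and H4c6 (296 bp after).

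Linker histone genes, whose H1 proteins bind the DNA between nucleosomes, had peaks at 3 of 5 members (60%, 23.1 to 88.2%). That interval covered the 32.9% of all protein-coding genes. H1f5 (Hist1h1b) had an endogenous Sox2 peak at 21779137 to 21779151 and a Halo-Sox2 peak at 21779519 to 21779536, both beyond the far end of the gene and 383.5 bp apart. H1f2 (Hist1h1c) had 2 Halo-Sox2D peaks, 72 bp before and 410 bp after its start, and H1f1 (Hist1h1a) had 1, 37 bp before its start. H1f3 and H1f4 had none.

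Of the H3 genes 3 of 12 members had a peak in any list (25%, 8.89 to 53.2%), near the 32.9% of all genes, and 9 had none. Of these 3, H3c13 (endogenous Sox2) and H3c1 (Halo-Sox2D) were counted through peaks nearer to H2bc18 and H4c1. H3c4 (Hist1h3d) held the single Halo-Sox2M peak at a member, at 23575793 to 23575794, 30.5 bp after its start, which was counted for H2ac7 too. H3c4 and H3c13 fell outside the rule for named genes and were named after their values were seen. Halo-Sox2 had no peak at an H3 gene. The classes share peaks with their neighbours and were not tested against each other. H3c14 and H3c15, which had no peak, have promoter windows 99.6% identical over 285 bases, and so do H4c17 and H4c18 (99.7% over 299), also without a peak. Whether reads that fit both copies equally were kept was not tested.

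**Figure D3:**
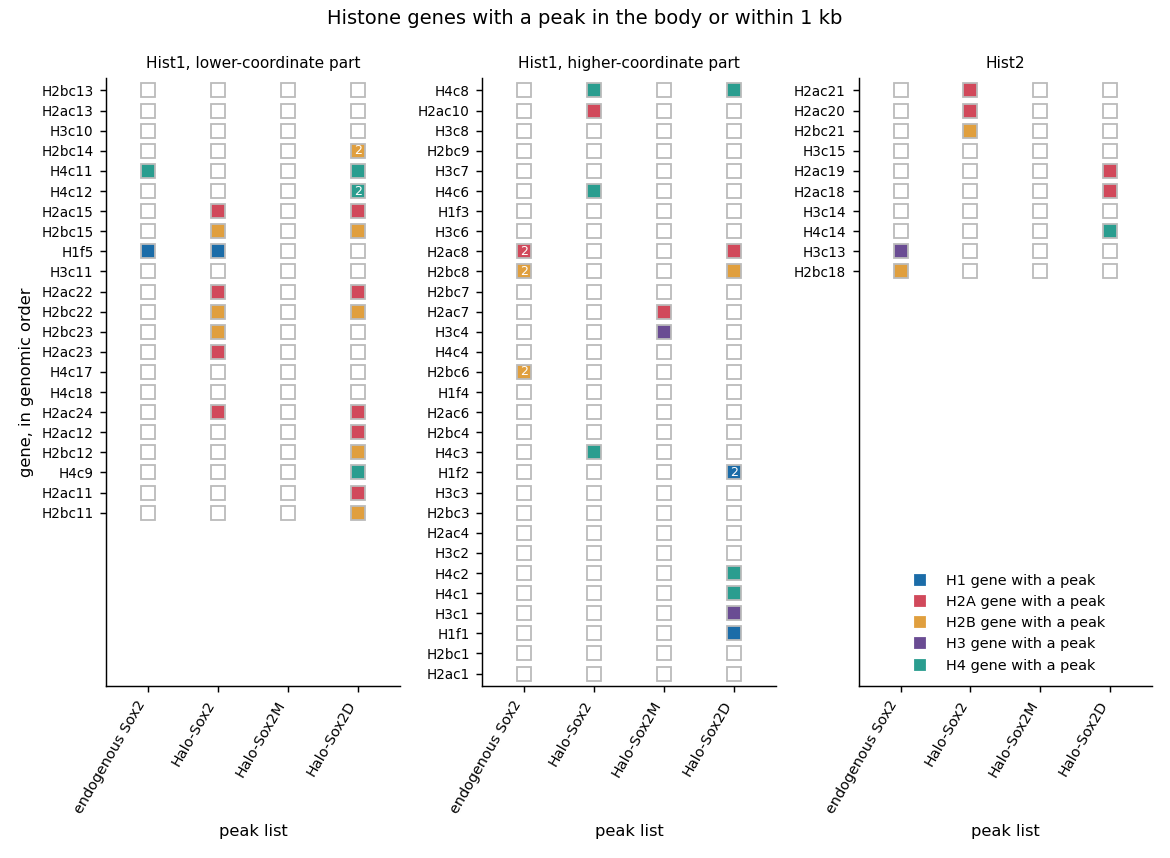
Each row is a histone gene in genomic order, in the 2 parts of the Hist1 cluster and in Hist2, and each column a peak list; a filled square marks a gene with a peak in the body or within 1 kb, coloured by histone class, with the number of peaks where it is 2. Filled squares are most frequent in the Halo-Sox2D column (24 genes) and rare in the Halo-Sox2M column (2 genes), and neighbouring H2A and H2B genes are often filled together.

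In all, 38 of 62 members (61.3%) had a peak in at least 1 list, against 32.9% of protein-coding genes. Of these, 28 had a peak in 1 list and 10 in 2. No member had a peak in 3 or 4 lists, as 2.71 and 0.247% of all protein-coding genes did. Halo-Sox2 and Halo-Sox2D had 6 members in common (H2ac15, H2bc15, H2ac22, H2bc22, H2ac24 and H4c8), which is 40.0% of the Halo-Sox2 members and 25.0% of the Halo-Sox2D members. Over all protein-coding genes 54.9% of those with a Halo-Sox2 peak and 22.8% of those with a Halo-Sox2D peak had both (5.82% of all genes). Endogenous Sox2 and Halo-Sox2D had 3 in common (H2ac8, H2bc8 and H4c11; 42.9 and 12.5% of their members), against 64.3 and 21% of the genes with either peak overall (both peaks in 5.36% of all genes). Endogenous Sox2 and Halo-Sox2 had H1f5 alone in common (14.3 and 6.67% of their members), against 43.5 and 34.2% overall (both peaks in 3.62% of all genes). Of these shares of members, that of Halo-Sox2D members with a Halo-Sox2 peak was near the share over all genes and the others were below it, on counts of 1 to 6 members. None of the shares over all genes in this paragraph is matched for gene length. Longer genes have more room for peaks of several lists, so the lower shares of members cannot be told apart from their shortness. Halo-Sox2 thus had 14 members that endogenous Sox2 did not (6.98% of all genes had this pattern) and endogenous Sox2 had 6 that Halo-Sox2 did not (4.72%). No member had a Halo-Sox2M peak together with an endogenous Sox2, Halo-Sox2 or Halo-Sox2D peak, as 0.498, 0.626 and 0.745% of all genes did. The mutant's 2 members thus lacked a peak in each other list (1.17, 1.05 and 0.927% of all genes), and all 7, 15 and 24 members of the other lists lacked one of Halo-Sox2M (7.84, 9.98 and 24.8%). Between the full-length and truncated fusions, 9 members had a peak of Halo-Sox2 and not Halo-Sox2D (4.78% of all genes) and 18 the reverse (19.7%). Between endogenous Sox2 and Halo-Sox2D the numbers were 4 (2.98%) and 21 (20.1%). At the 10 members with peaks in 2 lists, 14 of the 15 peaks had a centre of another list within 500 bp and 2 overlapped one. Closeness is partly built into this count, because both lists had to have a peak at the same, mostly short, gene. Of all 39 peaks at members, 14 had a centre of another list within 500 bp.

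The 24 members without a peak in any list included H2ac1 (synonym Th2a) and its neighbour H2bc1, a pair known from testis that stands apart at the upper end of Hist1. By class they were 2 H1, 4 H2A, 6 H2B, 9 H3 and 3 H4 genes.

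Peaks were next counted by cluster. The Hist1 genes fall into a part with lower coordinates (chromosome 13, 21715711 to 22043658, 22 members) and one with higher coordinates (23531044 to 23934913, 30 members), more than 1 Mb apart. Halo-Sox2D had a peak at 13 of 22 members of the lower part (59.1%), at 8 of 30 of the higher part (26.7%) and at 3 of 10 in Hist2 (30%; chromosome 3, 96219885 to 96270192), against 25.5% of all protein-coding genes. The 95% intervals were 38.7 to 76.7%, 14.2 to 44.4% and 10.8 to 60.3%, so that the first alone lay above the share of all genes. The corresponding numbers were 8 (36.4%), 4 (13.3%) and 3 (30%) for Halo-Sox2, against 10.6% of all genes. For endogenous Sox2 they were 2 (9.09%), 3 (10%) and 2 (20%), against 8.34%. All 3 Hist2 members with Halo-Sox2 owe their count to 1 peak, and both with endogenous Sox2 to 1 peak. The endogenous Sox2 intervals covered the share of all genes in each part. The Halo-Sox2 interval lay above its share of all genes in the lower part and, on that 1 peak, marginally in Hist2. Both Halo-Sox2M members lay in the higher part. Per Mb of span, Halo-Sox2D had 60.6 peaks in the lower part, 17.2 in the higher part and 57.4 in Hist2, the last from 3 peaks. The clusters were not tested against each other. Counting every peak in the spans, 30 Halo-Sox2D, 15 Halo-Sox2, 9 endogenous Sox2 and 4 Halo-Sox2M peaks fell in 0.788 Mb, or 38.1, 19.0, 11.4 and 5.08 per Mb in that order. Over the annotated length of all chromosomes the lists held 5.0, 2.29, 2.52 and 0.521 peaks per Mb, so that the spans were 7.61, 8.3, 4.53 and 9.74 times as dense. That length takes in the stretches between genes, and the spans also hold 32 tRNA genes, so the ratios do not describe histone genes alone. The ratio of Halo-Sox2M rests on 4 peaks, 3 of them inside tRNA genes.

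**Figure D4:**
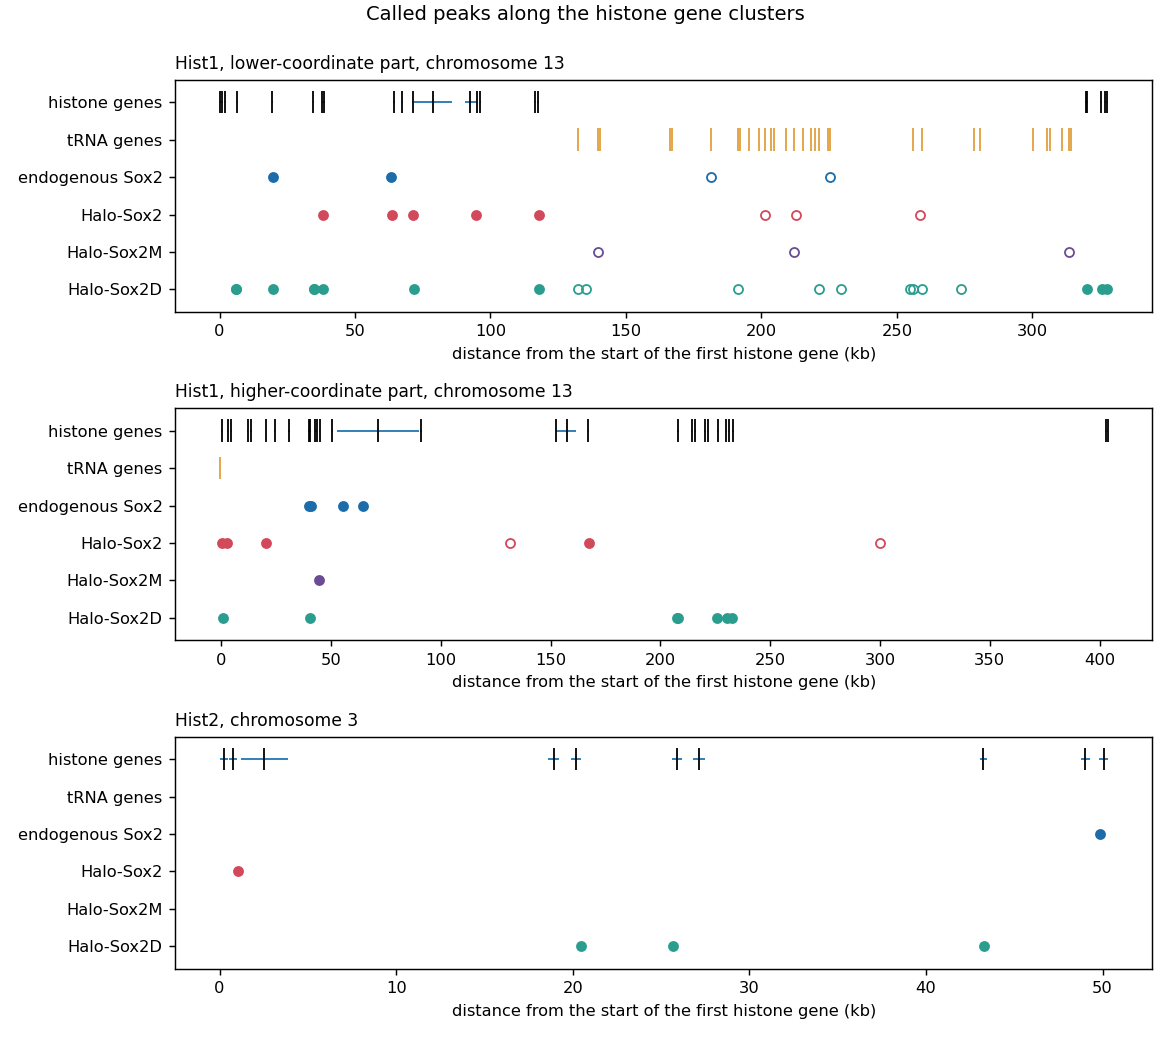
Positions along the 3 cluster spans, in kb from the start of the first histone gene, of histone genes, tRNA genes and the peaks of the 4 lists; filled circles are peaks in a histone gene or within 1 kb and open circles are all others. Filled circles sit under the histone genes and open circles of the lower part of Hist1 sit mostly under the tRNA genes there.

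Most peaks at histone genes lay far from annotated tRNA genes, but so did the members without a peak. The members' median distance from a tRNA gene was 41.9 kb with a Halo-Sox2D peak and 52.6 kb without. It was 43.2 and 51.3 kb for Halo-Sox2, 52.1 and 45.6 kb for endogenous Sox2, and 44.9 and 51.7 kb for Halo-Sox2M. These distances were not tested. No peak at a member had a tRNA gene as its nearest annotated gene, and none lay inside one, although peaks at members were counted for lying within 1 kb of a histone gene, which leaves little room for a nearer tRNA gene. The distance from those 39 peaks to the nearest tRNA gene had a median of 42.8 kb and ran from 0.966 to 233 kb. The nearest was n-TMcat9, a methionine tRNA gene 0.966 kb from the Halo-Sox2 peak in H4c8 and 1.34 kb from the Halo-Sox2D peak there, and the former is counted for n-TMcat9 below as well. For peaks in the lower part of Hist1 the nearest tRNA genes were n-TMcat7 (at H2bc14, H4c11, H4c12, H2ac15 and H1f5), n-TLtaa2 (at H2ac22, H2ac23 and H2ac24), n-TTagt1 (at H2ac12) and n-TSgct5 (at H4c9 and H2ac11), and for those in Hist2 it was n-TNgtt4, 52.4 kb or more away. In the higher part it was n-TMcat9 throughout.

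Of the 58 peaks in the spans, 19 lay at no member, and 13 of those were within 1 kb of a tRNA gene, 8 of them inside it. Both such endogenous Sox2 peaks were inside tRNA genes (n-TItat14, an isoleucine tRNA gene, and n-TSaga8, a serine tRNA gene; Mir1983 is annotated at the first place too), as were all 3 such Halo-Sox2M peaks (n-TIaat11, n-TSaga6 and n-TIaat7). Of 5 such Halo-Sox2 peaks 1 lay inside a tRNA gene (n-TRtct3) and 2 others within 1 kb. Of 9 such Halo-Sox2D peaks 2 were inside one (n-TLtaa2 and n-TKttt22) and 3 more within 0.1 kb (n-TMcat2, n-TSaga1 and n-TMcat8). Of the 4 Halo-Sox2M peaks in the spans, 3 thus lay in tRNA genes and 1 at a histone gene. Among the 30 Halo-Sox2D peaks, 5 lay within 1 kb of a tRNA gene and 21 at histone genes. The tRNA genes are multi-copy, so the placing of their reads is uncertain in the same way as for the histone copies.

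Inside the spans 3 of 32 tRNA genes had an endogenous Sox2 peak within 1 kb (9.38%, 3.24 to 24.2%), against 9.31% of all 408 tRNA genes. The numbers were 4 for Halo-Sox2 (12.5%, 4.97 to 28.1%; 18.6% of all), 5 for Halo-Sox2M (15.6%, 6.86 to 31.8%; 12.5% of all) and 6 for Halo-Sox2D (18.8%, 8.89 to 35.3%; 25.0% of all). In each list the interval covered the share of all tRNA genes, so a difference of the tRNA genes among the histone genes from tRNA genes as a whole was not detectable at these numbers.

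**Figure D5:**
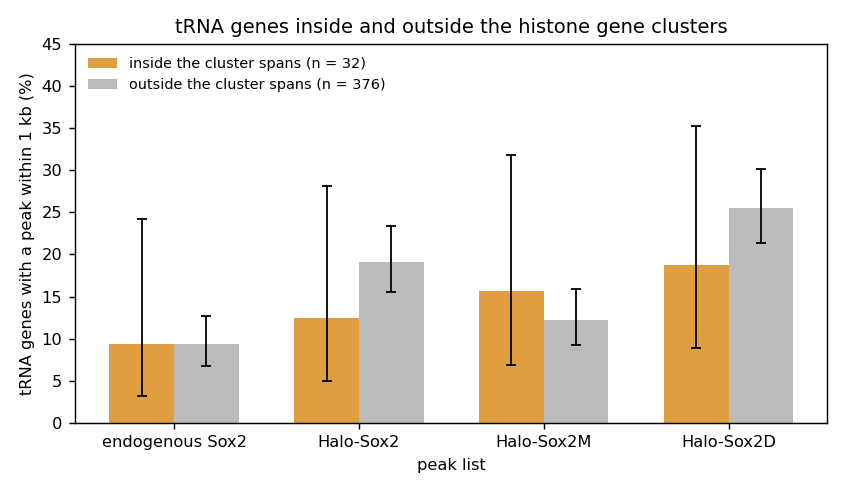
Percent of tRNA genes with a peak centre in the gene or within 1 kb, inside the histone cluster spans (32 genes) and outside them (376 genes), for each list, with 95% Wilson intervals over genes. The intervals of the bars overlap in every list.

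The promoter windows of members often held boxes known from histone genes, with or without a peak. Letters were searched on both strands in 58 windows of 57 members and in 21263 windows of protein-coding genes, each of 300 bases. Windows of genes that stand head to head overlap, so a match can count for both. CCAAT was found in 50 of the 58 (86.2%; 38.2% of all windows), in every H1, H2A, H2B and H3 window but in 3 of 11 H4 windows (27.3%), and TATAAA in 34 (58.6%; 12.6%). The octamer ATTTGCAT, which Oct1 binds in H2B promoters and which Oct4 also reads, was found in 13 (22.4%; 1.66%), 7 of them H2B and 6 H2A windows. The Sox letters ACAAT were in 24 (41.4%; 27.7%) and ACAAAG in 11 (19.0%; 16.8%). Of the 26 windows with a peak in any list, 7 held the octamer (26.9%), 12 ACAAT (46.2%), 7 ACAAAG (26.9%), 23 CCAAT (88.5%) and 14 TATAAA (53.8%). Of the 32 without a peak, 6 held the octamer (18.8%), 12 ACAAT (37.5%), 4 ACAAAG (12.5%), 27 CCAAT (84.4%) and 20 TATAAA (62.5%). A peak touched CCAAT in 3 windows (H2ac20, H2ac22 and H2bc22), ACAAT in 2 (H2ac19 and H2bc14), ACAAAG in 2 (H2ac8 and H2bc8) and the octamer or TATAAA in 0. A match describes the letters and is not a measured site.

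Genes listed as replication-independent histones had peaks mainly in the Halo-Sox2D list: 6 of 11 (54.5%), against 25.5% of all genes. The counts were 1 of 11 for Halo-Sox2 (9.09%, against 10.6%) and 0 for endogenous Sox2 and Halo-Sox2M. H2az1, the gene of the variant H2A.Z, had 2 Halo-Sox2D peaks, and H1f0, H2aj and H2az2 had 1 each. H2ax, whose product is phosphorylated at DNA breaks, had 1 Halo-Sox2 peak. Of 28 genes for factors that act on histone genes, their mRNAs or histone deposition, 12 had a Halo-Sox2D peak (42.9%), 5 a Halo-Sox2 peak (17.9%), 1 an endogenous Sox2 peak and 1 a Halo-Sox2M peak (3.57% each), against 25.5, 10.6, 8.34 and 1.67% of all protein-coding genes. Hira, a chaperone that deposits H3.3, had 4 Halo-Sox2D peaks and 1 endogenous Sox2 peak. Ccne1, the gene of cyclin E1, and Pou2f1, the gene of Oct1, had 1 Halo-Sox2 and 1 Halo-Sox2D peak each, and Ccne2 had 1 Halo-Sox2 and 1 Halo-Sox2M peak. Npat, the coactivator of histone transcription in S phase, had 2 Halo-Sox2 peaks. Asf1a, Cdk2 and Chaf1b had 1 Halo-Sox2D peak each, and Cpsf3, the endonuclease that cuts histone pre-mRNA, had 1 Halo-Sox2 peak. The shares of all genes beside these lists are not matched for gene length.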

How the data were processed

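Per the submitters' processing notes the authors used Bowtie2 and the mm10 build. Not given in the sources used here are versions, peak caller, threshold and how reads that fit several places were handled. Deposited was 1 list of peak coordinates per library by the authors, without scores. Starts were read as BED positions and are printed counted from 1. RefSeq's GRCm38.p6 annotation, which shares its chromosome coordinates with mm10, gave 49943 genes on the autosomes, X and Y, and its promoter table gave starts and strands. Of 62 members 57 were in the promoter table.

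Counts were made in Python 3.11.15 with numpy 2.4.6, pandas 2.3.3 and scipy 1.17.1, tested on simulated peaks, and the gene counts of the 4 lists were equal when made with bedtools 2.31.1. Cluster spans ran from the first to the last member plus 1 kb and were split at gaps over 1 Mb. Annotated length is from the first to the last gene of each chromosome. The members, lists and motifs were chosen with earlier results of these data known. Genes were named by the number of lists, then of peaks, then by alphabet, up to 30 of the 38 members with a peak, and the 8 others were named after their values were seen. In other lists genes with peaks in 2 or more lists and up to 5 more were named. H2afb1 matched more than 1 gene and was left out.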

Additional observations from a re-analysis of the deposited data

How the results depend on the processing

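Of 68 recomputed counts, 45 stayed within 1.5 times the reported one. Of those 45, 4 were counts of peaks at members with a tRNA gene nearest, which were 0 either way. No peak at a member lay in a dense bin, and peaks were at most 20 bp wide. Leaving out dense bins, or counting any overlap in place of the peak centre, could therefore change little. The counts of histone genes with a peak were the same under both settings and with joined peaks. Over gene bodies alone Halo-Sox2D had 10, Halo-Sox2M 1, and Halo-Sox2 and endogenous Sox2 3 each. Within 5 kb they were 12 for endogenous Sox2 and 5 for Halo-Sox2M, and within 0.5 kb 1 for Halo-Sox2M. By nearest gene they were 9 for Halo-Sox2 and 1 for Halo-Sox2M. In promoter windows alone, added after the data were seen, they were 1 for endogenous Sox2, 9 for Halo-Sox2 and 1 for Halo-Sox2M. The counts of tRNA genes in the clusters were 1 for Halo-Sox2 and 3 for Halo-Sox2M both within 0.1 kb and within 0.5 kb. Within 5 kb Halo-Sox2D had 14 such tRNA genes, Halo-Sox2 10 and Halo-Sox2M 8. Over the tRNA genes within 1 Mb of a member, also added later, Halo-Sox2 and Halo-Sox2D had 29 each, Halo-Sox2M 16 and endogenous Sox2 13. A wider area holds more genes by construction, and the cause of the other shifts was not tested. Without scores in the lists, the planned stricter threshold could not be run. No paired analysis was possible because each group has 1 library. Unknown depth limits every absence of a peak.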

Other observations

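Histone genes that the symbol rule leaves out but that carry an older Hist name were counted in the same way, after the data were seen. H2aw (Hist3h2a, chromosome 11, 58954685 to 58955192) had 2 Halo-Sox2D peaks. H4f16 (Hist4h4, chromosome 6, 136803993 to 136804431) had 1 endogenous Sox2 and 1 Halo-Sox2D peak. The gene listed as H4bc24 (Hist1h2br), which lies beside H2ac24, had 1 Halo-Sox2 and 1 Halo-Sox2D peak, the same ones that were counted for H2ac24. H2bu2 (Hist3h2ba) and H1f6 (Hist1h1t) had none. With these genes Halo-Sox2D had 27, Halo-Sox2 16, endogenous Sox2 8 and Halo-Sox2M 2.

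Peaks in the spans that lay neither at a member nor within 1 kb of a tRNA gene numbered 6. Of these, 4 were Halo-Sox2D peaks, 1 of them 37 bp from the zinc finger gene Zfp184 and 1 of them 662 bp from Pom121l2. The other 2 were Halo-Sox2 peaks, 1 of them 406 bp from the snRNA gene Gm22452.

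Over the tRNA genes within 1 Mb of a histone gene, 130 in number, 29 had a Halo-Sox2 peak within 1 kb (22.3%, 16.0 to 30.2%) and 29 a Halo-Sox2D peak (22.3%, 16.0 to 30.2%). Among the 278 farther away the shares were 16.9% (13 to 21.8%) and 26.3% (21.4 to 31.7%), so the intervals overlap for both lists.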
